A study of Mus musculus with 7 samples.

Results

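The 31 genes described here are the homeostatic microglia genes: the receptors, transcription factors, TGF-beta genes, pan-myeloid genes and immune receptors by which resting microglia are usually recognised. They are a list of names, and no measured value enters the rule that selects them. All 31 were found among the 23413 gene symbols counted, and all 31 were among the 15881 genes tested. Spi1 was listed under its older symbol, Sfpi1. RNA was sequenced from the cortex of mice of a transgenic line that models Alzheimer's disease and forms amyloid plaques. All 7 libraries came from this transgenic line and no wild-type library was compared, so every value below is a level in plaque-bearing tissue. From 6 months of age the mice were housed singly and fed for 7 months on a control diet (CD, labelled SD, 74% of energy from carbohydrate, 10% from protein and 16% from fat) or on a ketogenic diet (KD, under 0.5% carbohydrate, 10% protein and 90% fat), and tissue was taken at 13 months. Each library came from 1 mouse, 4 on CD and 3 on KD.

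Microglia are the resident macrophages of the brain parenchyma. In the healthy brain their survival depends on the receptor Csf1r and its ligands IL-34 and CSF1. Their identity is maintained by TGF-beta signalling and by the transcription factors PU.1 (encoded by Spi1), Irf8, Runx1 and Sall1. Purinergic receptors such as P2ry12 direct their processes to injury. Around amyloid plaques, microglia are known to lower many of these genes and to raise another set that includes Apoe and Trem2. The libraries were made from whole cortex, so fewer microglia and less RNA per microglial cell cannot be told apart in any value below.

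Library totals ranged from 22272883 to 36614954 counts, of which the 31 genes took 0.0742% to 0.135%. A member's count in a library ranged from 19 to 8151. Levels are given as CPM, counts scaled to library size after TMM scaling. Markers of cortical neurons summed to 652 to 765 CPM in 5 libraries, to 471 CPM in CD replicate 4 and to 305 CPM in KD replicate 3. Genes of the olfactory bulb summed to 64.3 CPM in CD replicate 4, 16.3 CPM in KD replicate 3 and 3.76 to 8.92 CPM in the others, and meningeal genes to 294 CPM in CD replicate 4 and 43.3 to 139 CPM in the others. The counts by diet are therefore also given without these 2 libraries, a choice made after seeing the data. The 5 libraries kept were not alike in tissue either. Choroid plexus genes summed to 448 CPM in CD replicate 1 and 9.88 to 64.5 CPM in the others. Oligodendrocyte genes summed to 1186 CPM in CD replicate 3, 1200 CPM in KD replicate 3 and 2301 to 4513 CPM in the others. The labels do not give the sex of the mice. Xist, transcribed from the inactive X chromosome of females, was at 248 to 531 CPM in CD replicates 1 and 2 and KD replicates 1 and 2, and at 0.31 to 3.08 CPM in CD replicates 3 and 4 and KD replicate 3, where the Y-linked Ddx3y was at 301 to 333 CPM.

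The sequence upstream of 4 members is shown for these reasons: Itgam was higher in every KD library than in any CD library, P2ry13 took a smaller share of the set in every KD library than in any CD library, Ctss had the highest level, and Inpp5d was the member with the longer PU.1 site. PU.1 belongs to the ETS family, which binds DNA around a GGAA core. Each run is the 250 bases before the annotated gene start from RefSeq, in GRCm38 (mm10) coordinates, read 5′ to 3′ on the gene's own strand. Capitals mark the motif GGAAGT on the strand shown.
Itgam, chr7:128062390-128062639, plus strand: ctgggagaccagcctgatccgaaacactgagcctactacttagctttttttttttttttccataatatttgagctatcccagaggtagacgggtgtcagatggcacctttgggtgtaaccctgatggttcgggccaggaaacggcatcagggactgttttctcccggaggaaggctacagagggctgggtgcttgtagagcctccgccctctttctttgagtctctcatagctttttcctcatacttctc
P2ry13, chr3:59210883-59211132, minus strand: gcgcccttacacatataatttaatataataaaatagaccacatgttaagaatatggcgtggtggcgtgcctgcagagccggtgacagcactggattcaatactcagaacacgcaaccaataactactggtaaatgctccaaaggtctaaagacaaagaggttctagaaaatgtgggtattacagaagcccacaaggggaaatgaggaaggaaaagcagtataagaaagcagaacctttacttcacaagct
Ctss, chr3:95526536-95526785, plus strand: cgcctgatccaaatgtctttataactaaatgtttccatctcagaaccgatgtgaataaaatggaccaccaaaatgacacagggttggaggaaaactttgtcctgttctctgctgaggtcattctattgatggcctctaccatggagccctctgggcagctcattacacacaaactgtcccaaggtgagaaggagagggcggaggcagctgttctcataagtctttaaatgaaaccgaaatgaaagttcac
Inpp5d, chr1:87620062-87620311, plus strand: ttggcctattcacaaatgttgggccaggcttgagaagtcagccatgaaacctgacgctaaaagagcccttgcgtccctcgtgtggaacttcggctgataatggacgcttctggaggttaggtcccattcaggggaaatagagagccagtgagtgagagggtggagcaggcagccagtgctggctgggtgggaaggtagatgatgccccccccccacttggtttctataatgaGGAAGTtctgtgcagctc

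RefSeq promoter windows were matched for 25 of the 31 members. Some had more than 1 window, and a match in any of them counted. The motif GGAAGT, read on both strands, was present in a window of 9 of these 25 members (36%), against 22.2% of 27025 genes with a window. Counted by window, it was in 10 of 33 (30.3%), against 19.7% of 32851. Sall1 and Tgfbr1 matched in only 1 of their windows, which for Tgfbr1 lay inside the gene. The 9 were Cd33, Fcrls, Inpp5d, Laptm5, P2ry12, Ptprc, Sall1, Siglech and Tgfbr1. The longer PU.1 site GAGGAAGT, which contains the shorter motif, was present in 1 of the 25 (4%), in Inpp5d with its GGAAGT beginning 18 bases before the start, against 2.79% of all genes. A match describes these letters in this window and was not tied to binding in these libraries.

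Levels were compared between members per kilobase of exon, over all 7 libraries. Ctss, which encodes the lysosomal protease cathepsin S, stood highest at 142 ± 36.2 CPM per kb (SD, n = 7), and its lowest library lay above the highest library of every other member. P2ry12 at 24.9, Fcrls at 21.7, Cx3cr1 at 19.5, Gpr34 at 18.9 and Csf1r at 18.2 CPM per kb followed, and the ranges of these neighbours in the order overlapped. At the lower end, Spi1 stood at 0.53, Tgfb1 at 0.187 and Runx1 at 0.17 CPM per kb. Receptors and a protease therefore led the set by level, while 2 of the 4 transcription factors were among the 3 lowest members. Only the gaps below Ctss and below Spi1 separated neighbours without overlap. P2ry12 and P2ry13 lie within Med12l, and Gpr34 lies within Cask, on the opposite strand. Cx3cr1 overlaps the counted genes Gorasp1, Csrnp1 and Xirp1 on its own strand and Wdr48 and Ttc21a on the opposite strand. On the opposite strand, Csf1r also overlaps Hmgxb3, and Abi3 overlaps Zfp652, Phospho1 and Gngt2. The libraries were stranded, but the strand setting of the counting was not given in the sources used here. Reads of these genes and of those they overlap may therefore not be told apart where exons coincide. On the same strand this holds whatever the setting.

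**Figure D1:**
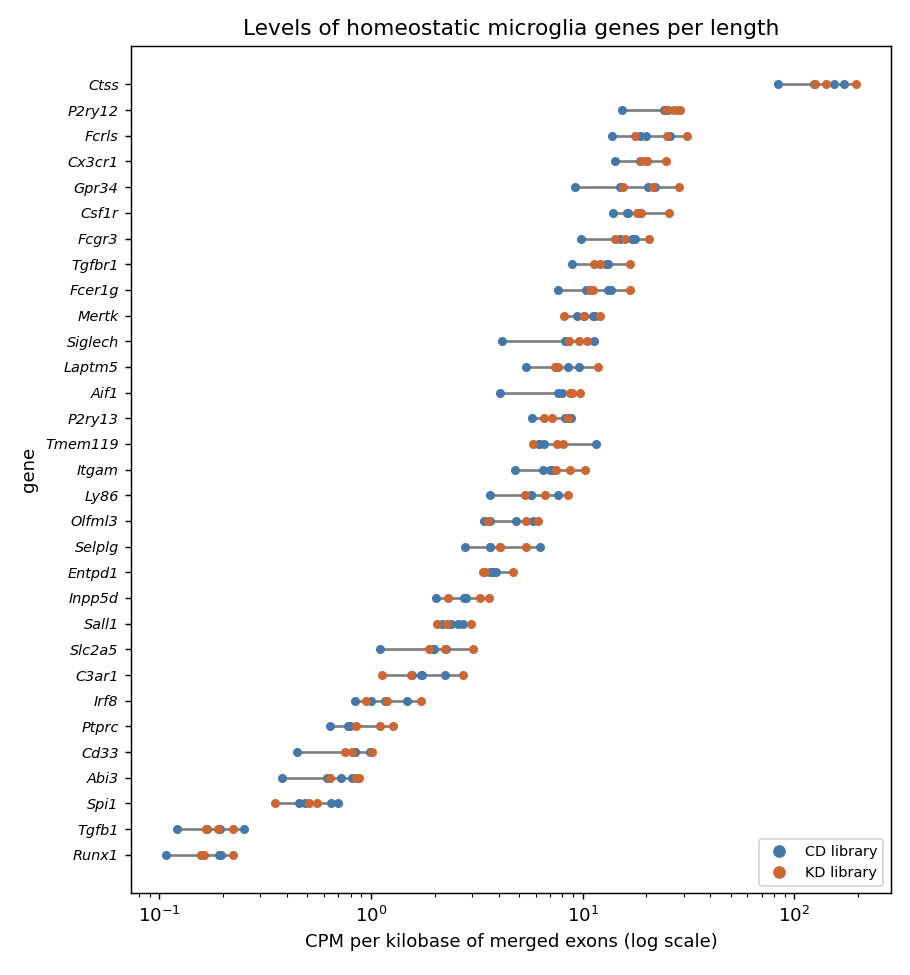
Level of each member in CPM per kilobase of exon (log axis), with a point for each CD and KD library and a grey line over the range of the 7 libraries. Ctss lies above every other member in all libraries, and Spi1, Tgfb1 and Runx1 lie lowest.

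The diet comparison asked whether the resting microglial programme differed in the cortex after 7 months of KD. In edgeR's quasi-likelihood test no member passed an adjusted p of 0.05 (Benjamini-Hochberg, over all genes tested), and the smallest adjusted p of a member was 0.979. The same test called 0% of the 15881 genes in either direction. DESeq2, limma-voom and edgeR's likelihood-ratio test also gave 0 members. At an unadjusted p under 0.05, 3 of 31 members were called, all higher on KD (9.68% of members, against 1.66% of all genes higher and 1.52% lower): Ptprc, Itgam and Csf1r. At the study's own threshold of an unadjusted p of 0.01 or less, 0 members were called in this test, against 0.151% of genes higher and 0.17% lower. At that threshold DESeq2 called 2 members and the likelihood-ratio test 1.

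The fitted log2 fold change (KD minus CD) was above 0 for 25 of the 31 members (80.6%, against 49% of all genes), with a median of 0.20 against -0.00329 over all genes and a range from -0.27 for Spi1 to 0.52 for Ptprc. This shift rested on single libraries. Without KD replicate 1 the median was 0.00209 and 16 of 31 members were higher, against 49% of all genes. Ptprc alone then had an unadjusted p under 0.05, where 4.01% of all genes did. Without CD replicate 4 the median was 0.05 and 23 members were higher, and without CD replicate 1 it was 0.32. With CD replicate 4 and KD replicate 3 both left out it was 0.17, with 28 of 31 members higher, against 50.2% of all genes. In that fit 4 members were called at an unadjusted p under 0.05 (Csf1r, Fcrls, Inpp5d and Itgam), against 2.54% of all genes.

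**Figure D2:**
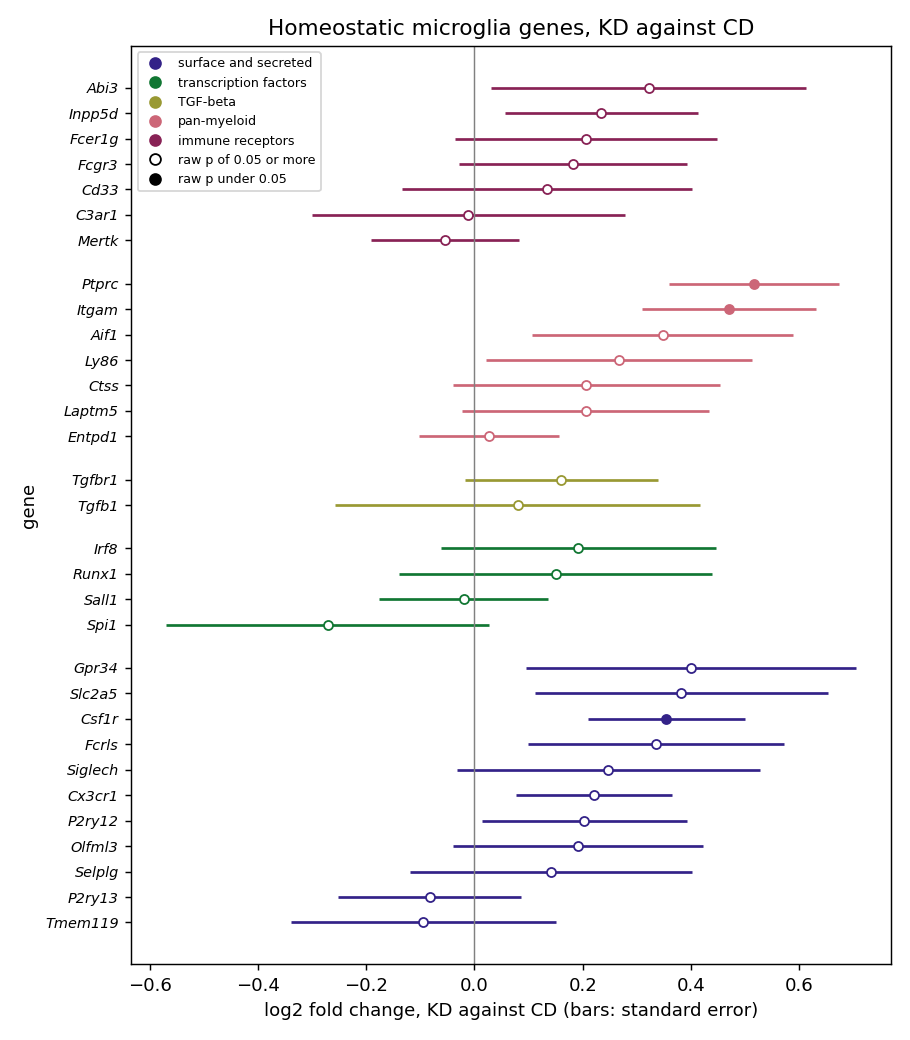
Log2 fold change (KD minus CD) of each member, coloured by role, with bars for the standard error from 4 CD and 3 KD libraries. Of the 31 points 25 lie above 0, and filled points mark the 3 members with an unadjusted p under 0.05 (Ptprc, Itgam and Csf1r).

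The summed level of the 31 members was 1157, 1014, 956 and 715 CPM in CD replicates 1 to 4 and 1361, 1036 and 960 CPM in KD replicates 1 to 3, a mean of 961 ± 184 CPM (SD, n = 4) on CD and 1119 ± 213 CPM (SD, n = 3) on KD. The groups overlapped, with KD replicates 2 and 3 inside the CD range. CD replicate 4 was the lowest library for 23 of 31 members (74.2%, against 18.8% of all genes), and KD replicate 1 was the highest for 23 of 31 (74.2%, against 12.8%). Libraries of the same diet thus differed across most of the set at once.

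**Figure D3:**
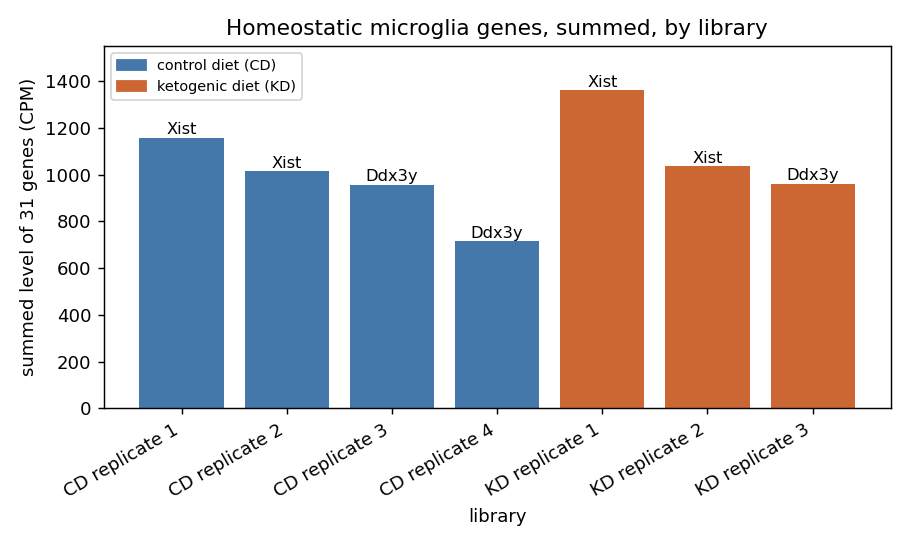
Summed level of the 31 members (CPM, bars from 0) in each library, coloured by diet, with the gene above each bar (Xist or Ddx3y) naming which of the pair was the more abundant. The 4 libraries with Xist reach 1014 to 1361 CPM and the 3 with Ddx3y 715 to 960 CPM.

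**Figure D4:**
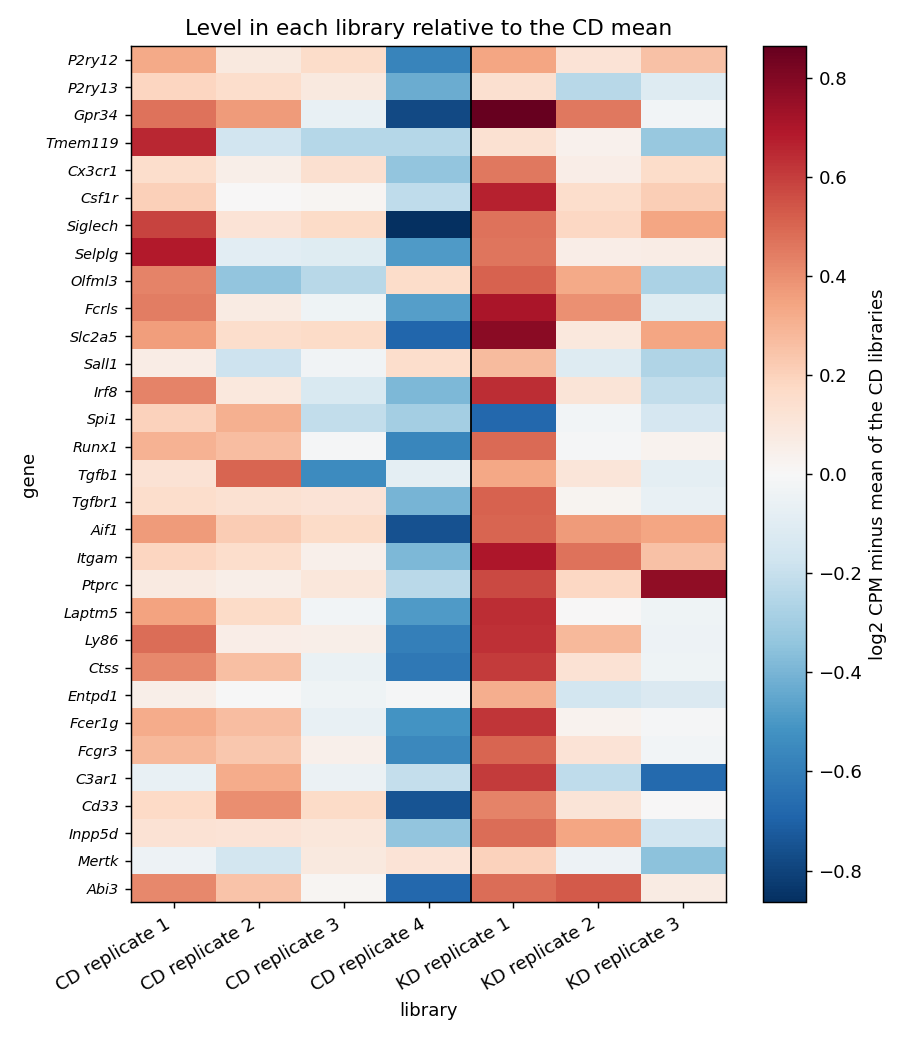
Heat map of log2 CPM minus the mean of the 4 CD libraries, with the 31 members in rows ordered by role and the 7 libraries in columns (red higher, blue lower, a line between the diets). CD replicate 4 is the lowest library for 23 members and KD replicate 1 the highest for 23.

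The same order separated the libraries by Xist: the 4 libraries with Xist had summed levels of 1014 to 1361 CPM and the 3 with Ddx3y 715 to 960 CPM. KD held 2 libraries of the first kind and 1 of the second, and CD held 2 of each. Among the libraries with Xist, the median log2 difference between KD and CD was 0.12 and 23 of 31 members were higher on KD, where 48.8% of all genes were. Among those with Ddx3y, with 1 KD library, it was 0.23 with 24 of 31 higher, where 50.4% of all genes were. There KD replicate 3 (960 CPM summed) was near CD replicate 3 (956 CPM), and CD replicate 4 (715 CPM) lay below both. Among the libraries with Xist, KD replicate 2 (1036 CPM) lay between CD replicates 2 and 1 (1014 and 1157 CPM), and KD replicate 1 (1361 CPM) above both. A further fit adjusted for how abundant Xist was in each library, on a continuous log scale, and not for the grouping by Xist or Ddx3y. In that fit the median was 0.18, and the 3 members with an unadjusted p under 0.05 were Ptprc, Itgam and Csf1r. The share of all genes with an unadjusted p under 0.05 was 6.52% in that fit, against 3.19% in the fit without Xist. The libraries with Ddx3y also had higher levels of meningeal and olfactory bulb genes, so sex and the tissue taken cannot be told apart here. The part of sex in the members' level was not tested.

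Of the 11 surface and secreted members, 9 had a log2 fold change above 0, with a median of 0.22, and 1 had an unadjusted p under 0.05. That member was Csf1r, the receptor for IL-34 and CSF1. Its level was 108, 93.8, 94.4 and 80.3 CPM in CD replicates 1 to 4 and 148, 104 and 108 CPM in KD replicates 1 to 3. KD replicate 1 stood above every other library, and KD replicate 2 fell below CD replicate 1, so the groups overlapped. The log2 fold change was 0.35 (SE 0.15, unadjusted p = 0.0396 and adjusted p = 0.979 in edgeR), and it was 0.18 without KD replicate 1 (unadjusted p = 0.199). Csf1r also passed the unadjusted threshold no longer without CD replicate 2, 3 or 4.

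P2ry12, the receptor for ADP that directs microglial processes to injury, was at 72.8, 61.4, 64.6 and 38.9 CPM on CD and 73.2, 62.9 and 69.1 CPM on KD, a log2 fold change of 0.20 (SE 0.19). The 3 KD libraries lay close to the first 3 CD libraries, and CD replicate 4 lay below all of them. Cx3cr1, the receptor for the neuronal chemokine fractalkine, was at 90.1, 84.1, 89.4 and 64.1 CPM on CD and 111, 84.6 and 90.5 CPM on KD, a log2 fold change of 0.22 (SE 0.14). Here too CD replicate 4 was lowest and KD replicate 1 highest, with the other 5 libraries between 84.1 and 90.5 CPM. Gpr34, a receptor for lysophosphatidylserine, ranged more widely, at 45.6, 42.5, 31.5 and 19.2 CPM on CD and 59.9, 45.1 and 32.3 CPM on KD, a log2 fold change of 0.40 (SE 0.30). CD replicate 4 and KD replicate 1 were again the extremes, and the groups overlapped.

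Fcrls, a scavenger receptor of the Fc receptor-like family, was at 60.3, 46.6, 43.3 and 32.0 CPM on CD and 72.5, 58.5 and 41.3 CPM on KD, a log2 fold change of 0.34 (SE 0.24). Slc2a5, the fructose transporter GLUT5, was at 7.72, 6.67, 6.72 and 3.74 CPM on CD and 10.3, 6.38 and 7.61 CPM on KD, a log2 fold change of 0.38 (SE 0.27). For both genes the lowest KD library lay inside the CD range. The ADP receptor P2ry13 and Tmem119, a membrane protein much used as a microglial marker, were the surface members with fold changes below 0, at -0.08 (SE 0.17) and -0.09 (SE 0.24). Siglech, a sialic acid-binding lectin, Olfml3, a secreted matrix protein, and Selplg, the ligand of P-selectin, had values of 0.25, 0.19 and 0.14.

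All 7 pan-myeloid members had a log2 fold change above 0 (median 0.27), and 2 had an unadjusted p under 0.05. Ptprc, at chr1:138062861-138175708, encodes CD45, the phosphatase common to all leukocytes. Its level was 14.4, 14.2, 14.6 and 11.7 CPM on CD and 20.3, 15.5 and 23.2 CPM on KD. Every KD library lay above every CD library, although KD replicate 2 exceeded the highest CD library by less than 1 CPM. The log2 fold change was 0.52 (SE 0.16, unadjusted p = 0.0103 and adjusted p = 0.979 in edgeR), and 0.31 (unadjusted p = 0.074) with CD replicate 4 and KD replicate 3 both left out. Because Ptprc is shared with blood cells, blood leukocyte markers were read beside it: 3 of 15 were abundant enough to test, and the whole list summed to 1.49 to 5.58 CPM on CD and 1.55 to 1.86 CPM on KD, with the highest value in CD replicate 4.

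Itgam, at chr7:128062640-128118491, encodes CD11b, the alpha chain of complement receptor CR3. It was at 35.9, 35.1, 32.6 and 24.1 CPM on CD and 51.3, 43.7 and 37.6 CPM on KD. The lowest KD library stood above the highest CD library. Non-overlapping ranges with KD higher were found for Itgam and Ptprc, 2 of 31 members (6.45%, against 2.05% of all genes), and 0 members had them with KD lower (against 2.07%). The log2 fold change of Itgam was 0.47 (SE 0.16, unadjusted p = 0.0181 and adjusted p = 0.979 in edgeR). An exact permutation test of its log2 CPM, two-sided over 35 arrangements, gave p = 0.0571, the smallest that 3 against 4 libraries allow. That value follows from the ranges not overlapping and adds no further support. Without KD replicate 1 the fold change was 0.35 (unadjusted p = 0.0802 in edgeR), and within the libraries with Xist and those with Ddx3y it was 0.41 and 0.42. The value with Ddx3y compares KD replicate 3 alone (37.6 CPM) with CD replicates 3 and 4 (32.6 and 24.1 CPM).

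Aif1, at chr17:35170991-35176068, encodes Iba1, the actin-binding protein by which microglia are usually stained. Its level was 13.5, 12.2, 11.8 and 6.24 CPM on CD and 14.9, 13.6 and 13.3 CPM on KD. CD replicate 4 was less abundant than the rest, and KD replicate 3 lay below CD replicate 1, so the groups overlapped. The log2 fold change was 0.35 (SE 0.24, unadjusted p = 0.187 in edgeR), the exact two-sided permutation test gave p = 0.114, and without CD replicate 4 the fold change was 0.15. Ctss was at 233, 209, 168 and 114 CPM on CD and 265, 191 and 170 CPM on KD, a log2 fold change of 0.21 (SE 0.25) with wide overlap. Ly86, the MD-1 partner of the receptor RP105, Laptm5, a lysosomal membrane protein, and Entpd1, the ectonucleotidase CD39, had values of 0.27, 0.21 and 0.03.

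The 4 transcription factors had fold changes of both signs, and 0 had an unadjusted p under 0.05. Irf8 and Runx1 had log2 fold changes of 0.19 (SE 0.25) and 0.15 (SE 0.29), Sall1, which marks microglia among brain macrophages, -0.02 (SE 0.16), and Spi1 -0.27 (SE 0.30). Spi1 was counted only 22 to 61 times in each library. Sall1 changed the sign of its value with CD replicate 4 and KD replicate 3 both left out (0.14). Of the TGF-beta genes, the receptor Tgfbr1 had a value of 0.16 (SE 0.18), and the ligand Tgfb1, with 19 to 37 counts per library, 0.08 (SE 0.34).

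Among the 7 immune receptor and signalling members, 5 had log2 fold changes above 0 (median 0.18), with 0 at an unadjusted p under 0.05. Abi3, an actin regulator, was at 0.32 (SE 0.29), Inpp5d, the lipid phosphatase SHIP1, at 0.23 (SE 0.18), Fcer1g, the common Fc receptor gamma chain, at 0.21 and the IgG receptor Fcgr3 at 0.18. Cd33, an inhibitory sialic acid-binding receptor, was at 0.13, the complement C3a receptor C3ar1 at -0.01 and Mertk, a receptor for the engulfment of dying cells, at -0.05. None of these ranges separated by diet. C3ar1 and Mertk changed sign with CD replicate 4 and KD replicate 3 both left out.

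Expressed as a share of the members' summed CPM, Itgam and P2ry13 were the 2 members whose libraries did not overlap by diet. Itgam took 3.10%, 3.46%, 3.40% and 3.37% on CD and 3.77%, 4.22% and 3.91% on KD, a mean of 3.33% ± 0.159 (SD, n = 4) against 3.97% ± 0.229 (SD, n = 3). P2ry13, at chr3:59207892-59210882, took 1.93%, 2.15%, 2.18% and 2.04% on CD and 1.59%, 1.61% and 1.89% on KD, a mean of 2.08% ± 0.114 (SD, n = 4) against 1.69% ± 0.17 (SD, n = 3). On the log scale, as log2 CPM minus the mean over the members, the same 2 genes separated. Itgam was the 1 of 31 members (3.23%, against 0.157% of all genes) with KD higher, and P2ry13 the 1 of 31 (3.23%, against 4.19%) with KD lower. The share with KD lower is near that of all genes. The mean subtracted was that of the members themselves, so it removes what they have in common but adds it to every other gene. The shares of all genes are therefore not a like rate, and neither count of 1 in 31 is a result about the members. A share compares members with each other and does not show that either gene changed.

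**Figure D5:**
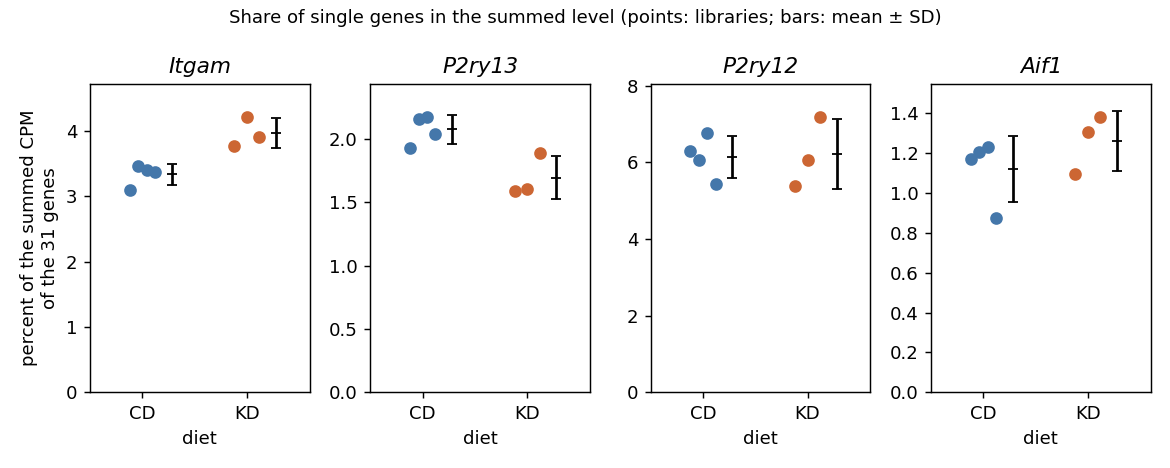
Share of the members' summed CPM (percent, axes from 0) taken by Itgam, P2ry13, P2ry12 and Aif1, with a point for each library and the mean ± SD of each diet beside them. For Itgam the 3 KD libraries lie above the 4 CD libraries and for P2ry13 they lie below them, while the diets overlap for P2ry12 and Aif1.

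The partner genes, 26 ligands, co-receptors and signalling genes of these members, had a median log2 fold change of 0.04, with 18 above 0 and 8 below. The Csf1r ligands Il34 and Csf1 had values of 0.12 (SE 0.11) and 0.04 (SE 0.18), and the Cx3cr1 ligand Cx3cl1 0.04. Gas6, a bridging ligand of Mertk, was the only partner with an unadjusted p under 0.05. It was at 88.4, 79.9, 65.1 and 105 CPM on CD and 65.8, 64.0 and 59.5 CPM on KD, with CD replicate 3 inside the KD range. The log2 fold change was -0.43 (SE 0.15, unadjusted p = 0.0213 and adjusted p = 0.979 in edgeR), where 1.52% of all genes were lower at an unadjusted p under 0.05. Gas6 was highest in CD replicate 4. The threshold was missed without KD replicate 3 (-0.39, unadjusted p = 0.0623 in edgeR) and with CD replicate 4 and KD replicate 3 both left out (-0.26, unadjusted p = 0.0867), and the value was -0.30 without CD replicate 4. Nrros, which anchors latent TGF-beta 1 on microglia, had a value of -0.33 (SE 0.19). Tgfb2 had one of 0.50 (SE 0.37), which rested on KD replicate 3 at 20.9 CPM against 6.38 to 8.95 CPM in the other libraries, and was -0.20 without it.

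The list of plaque-associated microglial genes gave a median log2 fold change of 0.08, with 16 of 25 above 0 (against 49% of all genes), 9 below and 0 at an unadjusted p under 0.05. Values ranged from -0.98 (SE 0.59) for Ccl4 to 0.73 (SE 0.39) for Itgax. Like most of the 31 members, Itgax, Cst7, Clec7a, Trem2 and Tyrobp were lowest in CD replicate 4 and highest in KD replicate 1, while Spp1 was highest in CD replicate 4. The list's summed level was 2488 to 3162 CPM on CD and 2345 to 3385 CPM on KD. Apoe, Ctsb and Ctsd made up most of it, with means of 681, 672 and 807 CPM on CD. The markers of border macrophages, which share many myeloid genes with microglia, had a median of -0.43 with 1 of 8 above 0. They summed to 14.9 to 46.7 CPM on CD, highest in CD replicate 4, and 16.9 to 21.5 CPM on KD. Their level was therefore highest in the library in which the homeostatic members were lowest, and their part in the members' values was not tested.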

How the data were processed

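RNA was taken from 10 mg of frozen cortex of 7 mice and sequenced as stranded total RNA in paired 50-base reads. The authors aligned reads to mm10 with STAR and deposited raw counts per gene symbol. Versions, annotation and strand setting were not given in the sources used here. CD (labelled SD) and KD were compared as separate animals, and the full genotype of the line is not reported here. Genes were filtered with filterByExpr, scaled by TMM and fitted with edgeR 4.0.16 (estimateDisp, robust glmQLFit and glmQLFTest) in R 4.3.3, with p-values adjusted over all 15881 genes. DESeq2 1.42.0 and limma 3.58.1 (voom) were alternatives, and scripts were tested on simulated counts. There, at an adjusted p under 0.05, 62.2% of genes with a true log2 fold change of 1 were recovered, and 7.58% of calls were false. The members' fitted values, from -0.27 to 0.52, were smaller than any change simulated, so the absence of calls among them does not show absence of change. CPM is TMM-scaled, and log2 CPM used a prior count of 2. Exon lengths and coordinates are of GENCODE M21 (mm10), and promoters of RefSeq GRCm38.p6.

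The members and lists were chosen with earlier results of these data known. Values in every library are given for Aif1, Itgam, members with an unadjusted p under 0.05, the 6 largest fold changes, the 6 highest levels per kb and members whose diets do not overlap. Alternatives were other scalings, filters and tests, leaving out each library, a replicate block and Xist as a covariate.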

Additional observations from a re-analysis of the deposited data

Results flagged for a closer look

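Among the 4 CD libraries, 5 of 32 values examined (each member and the members' mean, as log2 CPM) had an outlying library. It lay farther from the others than Dixon's 95% critical value for 4 libraries allows. For separate values chance gives about 1 in 20, or 1.6. These values were not separate, as CD replicate 4 was the lowest of 7 libraries for 23 of 31 members. The 5 can therefore not be read against the 1.6. Tgfbr1 (ratio of gap to range 0.937) was at 5.87 in CD replicate 4 and 6.39 to 6.43 in the others. Inpp5d (0.933) was at 3.96 in CD replicate 4 and 4.39 to 4.42 in the others. Ptprc (0.865) was at 3.55 there against 3.83 to 3.88, and P2ry13 (0.833) at 3.87 against 4.38 to 4.48. Tmem119 (0.912) was the exception in library and direction, at 4.74 in CD replicate 1 against 3.85 to 3.93 in the other CD libraries.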

How the results depend on the processing

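No member passed an adjusted p of 0.05 under any alternative, and members called at an unadjusted p under 0.05 numbered 1 to 4 (3 as reported) when 1 library was left out. Genes with an unadjusted p of 0.01 or less numbered 51 as reported, 120 in DESeq2, 103 in the likelihood-ratio test, 208 with Xist as a covariate, 182 with the replicate block and 19 to 211 with 1 library left out. Genes with an adjusted p under 0.05 numbered 0, and 1 with Xist as a covariate or the likelihood-ratio test. The members' median (0.20) was 0.00209 to 0.32 with 1 library left out. The fit with the replicate block also leaves out CD replicate 4, which has no KD counterpart, and its median was 0.0424 against 0.0453 without that library alone. Members with an unadjusted p of 0.01 or less numbered 0 as reported and 2 in DESeq2, and 1 in the likelihood-ratio test, with Xist as a covariate, with upper-quartile scaling, with the filter of at least 1 count, without KD replicate 2 or 3 and with CD replicate 4 and KD replicate 3 both left out. For the partners, those called at an unadjusted p under 0.05 numbered 0 to 2 with 1 library left out, and 0 with CD replicate 4 and KD replicate 3 both left out. Per kilobase of the longest transcript, 5 of the 6 highest members were shared with the order given. Libraries of the same replicate number had correlations of deviations of 0.251, 0.195 and 0.098. Libraries of different numbers were not compared in this way, so whether the numbers pair the mice was not tested.

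Of 645 values of single genes under alternatives, 614 kept their direction and 31 reversed, and the cause was not tested. With CD replicate 4 and KD replicate 3 both left out, Sall1 was 0.14, C3ar1 0.17, Mertk 0.12 and Tgfb2 -0.16. With the replicate block (and so without CD replicate 4), Sall1 was 0.0203, Runx1 -0.0166 and Cd33 -0.0665, against 0.0317, -0.00677 and -0.0589 without that library alone, and in limma-voom Entpd1 was -0.000833. With 1 library left out, values ranged from -0.19 to 0.18 for Tmem119, -0.00645 to 0.42 for Selplg, -0.19 to 0.0846 for Sall1, -0.0708 to 0.37 for Irf8, -0.0277 to 0.25 for Runx1, -0.0713 to 0.27 for Tgfb1, -0.0377 to 0.27 for Tgfbr1, -0.0480 to 0.33 for Laptm5, -0.00377 to 0.35 for Ctss, -0.14 to 0.11 for Entpd1, -0.0249 to 0.32 for Fcer1g, -0.44 to 0.23 for C3ar1, -0.0589 to 0.27 for Cd33, -0.20 to 0.0747 for Mertk and -0.20 to 0.80 for Tgfb2. The lowest counts were those of Tgfb1, 19 to 37 per library, with a standard error of 0.34. Gpr34, with far more counts, had one of 0.30.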

Other observations

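In 12 of the 31 members (38.7%, against 4.99% of all genes) every library with Xist was higher than every library with Ddx3y: Abi3, Ctss, Fcer1g, Fcgr3, Fcrls, Gpr34, Inpp5d, Irf8, Laptm5, Ly86, Tgfb1 and Tmem119. They include the protease with the highest level, Fc receptor subunits and 1 transcription factor, and none of the 3 members with an unadjusted p under 0.05 by diet. CD replicate 3 and KD replicate 3 were below every library with Xist in these 12 members, as CD replicate 4 was. Over the 31 members, CD replicate 4 summed to 715 CPM and the other libraries with Ddx3y to 956 and 960 CPM. Meningeal genes summed to 43.3 to 57.6 CPM in the libraries with Xist and 86.9 to 294 CPM in those with Ddx3y. Olfactory bulb genes summed to 3.76 to 5.26 CPM and 8.92 to 64.3 CPM in the same order. Sex and the tissue taken can therefore not be told apart in these libraries, and the part of either was not tested.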
